A study of Homo sapiens with 6 samples.

Results

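Across the series 10 genes of the Notch pathway were followed: the receptors NOTCH1, NOTCH2 and NOTCH3, the ligands JAG1, JAG2 and DLL1, the nuclear factors RBPJ and MAML1, and the target genes HES1 and HEY1. They were listed by name and found by matching Ensembl identifiers to symbols, which located all 10 among the 19493 genes that had values in every library. All 10 reached the minimum for testing, 1 corrected RPKM (cRPKM, reads relative to gene length and library total) in at least 2 of 6 libraries, but HEY1 did so only through the 2 UVC libraries. The choice of HEY1 for testing therefore already required a higher level after UVC, and its values are given as a description.

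HaCaT cells, immortalised keratinocytes of human skin, were used throughout, and every group, controls included, expressed the photolyase of the marsupial Potorous tridactylus that splits cyclobutane pyrimidine dimers (CPDs). CPDs are lesions that UVC light makes between neighbouring pyrimidines of DNA. Control cells were left untreated and had the photolyase inactive. UVC cells received 15 J/m2 at 254 nm with the photolyase inactive. The third group received the same UVC dose plus 2 h of white light, which activates the enzyme. Both irradiated groups were harvested 6 h after UVC. Each group had 2 libraries, and whether these were separate cultures is not stated in the labels. The p-values therefore reflect only how far libraries differ, which may be technical. Because no other group saw white light, effects of the light and of the activated enzyme cannot be told apart. The sources used here name neither the promoter of the photolyase nor whether the line is 1 clone.

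Notch receptors are single-pass membrane proteins that bind Jagged or Delta-like ligands on a neighbouring cell. Binding exposes the receptor to an ADAM protease and then to gamma-secretase, which frees its intracellular domain. That domain enters the nucleus, joins the DNA-binding protein RBPJ and a Mastermind protein such as MAML1, and switches on genes of the HES and HEY families, which encode transcriptional repressors. In the epidermis, Notch signalling is known for its part in taking basal keratinocytes out of the cell cycle and into differentiation.

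Total gene counts ran from 57669389 to 70005705 per library. Levels are cRPKM divided by the scaling factor of the library (trimmed mean of M values, TMM), written below as scaled cRPKM, and are given as mean ± SD (n = 2). TMM takes most genes as unchanged, so each difference is relative to the bulk of transcripts. Scaling by library totals instead shifted the median of all tested genes from 0.0 to 0.42 on the log2 scale for UVC against control, from -0.04 to -0.34 for active photolyase against UVC, and from 0.01 to 0.12 for active photolyase against control. Directions and calls that this choice altered are named beside each gene. A gene was called at an edgeR quasi-likelihood p under 0.05 after Benjamini-Hochberg adjustment across the 11926 tested genes. Of these, 85.6% were called for UVC against control and 79.1% for active photolyase against UVC, so the calls do not bear out that most genes were unchanged. A gene given as higher could still have fallen in amount per cell, if by less than the bulk. Keratinocyte markers matched the label, since all 6 of 6 (KRT5, KRT14, KRT6A, TP63, ITGA6 and CDH1) were tested and their summed level was 13270 to 14060 scaled cRPKM in control, 9643 to 9913 after UVC and 12920 to 13040 with active photolyase. The keratins set that sum, and single markers differed: KRT5 stood at 2631 and 2391 in control and 3156 and 3101 after UVC, CDH1 at 369.9 and 385 and then 79.7 and 81.5, ITGA6 at 276 and 287 and then 70.7 and 77.2, and TP63 at 48.6 and 47.6 and then 14.2 and 15.9.

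After UVC, receptors and ligands each held a gene that rose and a gene that fell. NOTCH3, JAG2 and HES1 rose 2.31- to 2.93-fold, while JAG1 fell 3.57-fold and NOTCH2 fell 2.4-fold. With active photolyase each of those 5 genes moved the other way from its UVC level, and JAG1 stood at 109 scaled cRPKM against 106 in control. In bulk RNA, fewer cells expressing a gene and less RNA per cell cannot be told apart.

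**Figure D1:**
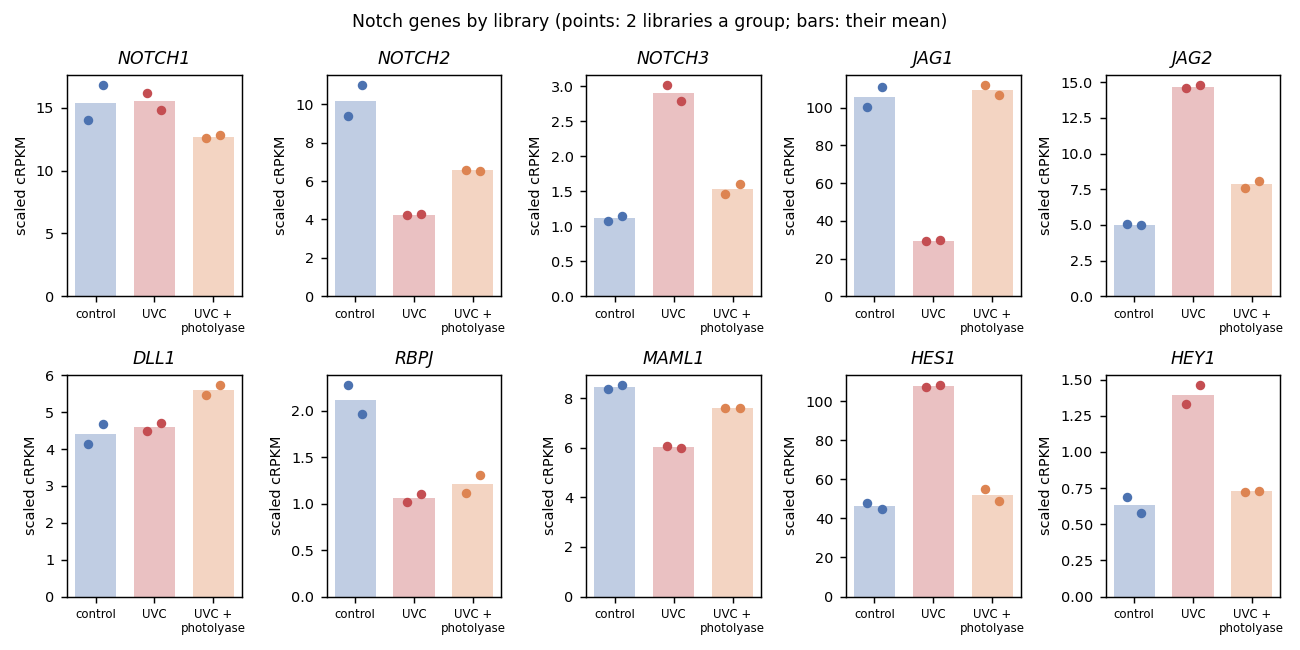
Scaled cRPKM of the 10 Notch genes in each of the 6 libraries (points; linear axes from 0, each gene on its own scale) by group, with the group mean as a bar. JAG1 lay at 29.3 and 29.7 in the UVC libraries and at or above 100.4 in the other 4, whereas HES1 lay at 107 and 108 after UVC and at or below 54.8 elsewhere.

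The 3 ligands took different courses. JAG1 (ENSG00000101384, chromosome 20), the Jagged ligand with the highest level here, stood at 100.4 and 111 scaled cRPKM in the control libraries, 29.3 and 29.7 in the UVC libraries, and 112 and 107 with active photolyase. Both UVC libraries lay below all 4 others. The fall after UVC was -1.84 ± 0.06 on the log2 scale (SE; edgeR adjusted p = 2.88e-12), and the rise from UVC to active photolyase was 1.89 ± 0.06 (adjusted p = 3.85e-12), or 3.71-fold. Active photolyase against control gave 0.05 ± 0.06 (adjusted p = 0.431, 95% interval -0.07 to 0.18), a comparison that was called higher with library totals (0.16, adjusted p = 0.0217) and turned to -0.02 without control replicate 1.

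JAG2 (ENSG00000184916, chromosome 14), the other Jagged ligand, took the opposite course. It stood at 5.05 and 5.0 scaled cRPKM in the control libraries, 14.6 and 14.8 in the UVC libraries, and 7.61 and 8.10 with active photolyase, so the 3 groups did not overlap. The rise after UVC was 1.55 ± 0.05 (adjusted p = 6.04e-12), the fall with active photolyase was -0.91 ± 0.05 (adjusted p = 1.98e-09), and the level stayed above control by 0.64 ± 0.05 (adjusted p = 3.36e-07).

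DLL1 (ENSG00000198719, chromosome 6), a Delta-like ligand, changed little. Its levels were 4.13 and 4.67 scaled cRPKM in the control libraries, 4.48 and 4.72 in the UVC libraries, and 5.48 and 5.73 with active photolyase. The UVC libraries overlapped the control libraries, and both photolyase libraries lay above them. UVC against control gave 0.06 ± 0.08 (adjusted p = 0.451, 95% interval -0.11 to 0.23), but 0.48 (adjusted p = 4.08e-05) with library totals. Active photolyase exceeded UVC by 0.28 ± 0.08 (adjusted p = 0.00415), a difference of -0.02 (adjusted p = 0.777) with library totals and of 0.21 (adjusted p = 0.0634) without photolyase replicate 2. Against control the difference was 0.35 ± 0.08 (adjusted p = 0.00156), and it was called under both scalings. The span of DLL1 overlaps FAM120B on the opposite strand, whose log2 differences in the same order were -0.40, -0.20 and -0.60. The use of strand in the authors' counting is not given in the sources used here, so reads of overlapping genes on opposite strands cannot be told apart. This holds too for NOTCH1 and JAG1, which overlap the antisense genes AL592301.1 and AL050403.2 (not analysed here). JAG2 overlaps 2 genes and NOTCH3 overlaps 1 gene, all on their own strand (not analysed here). Use of strand would not tell apart reads of such genes.

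Among the receptors, 3 different courses were seen. NOTCH1 (ENSG00000148400, chromosome 9), the most abundant Notch receptor per length in these cells, stood at 14.0 and 16.8 scaled cRPKM in the control libraries, 16.2 and 14.8 in the UVC libraries, and 12.6 and 12.8 with active photolyase. Control and UVC libraries overlapped, and both photolyase libraries lay below them. UVC against control gave 0.01 ± 0.07 (adjusted p = 0.925, 95% interval -0.15 to 0.17). That value depended on the scaling and on single libraries: it was 0.42 with library totals (adjusted p = 6.28e-05), 0.14 without control replicate 2 (adjusted p = 0.0361), -0.12 without control replicate 1 and -0.06 without UVC replicate 1. Active photolyase differed from UVC by -0.29 ± 0.07 (adjusted p = 0.00296), which without UVC replicate 1 was -0.22 and not called (adjusted p = 0.058). Against control the difference was -0.28 ± 0.07 (adjusted p = 0.00492), not called with library totals (-0.17, adjusted p = 0.0546) or without control replicate 2 (-0.14, adjusted p = 0.0516).

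NOTCH2 (ENSG00000134250, chromosome 1) followed the direction of JAG1. Its levels were 9.38 and 11.0 scaled cRPKM in the control libraries, 4.22 and 4.27 in the UVC libraries, and 6.59 and 6.54 with active photolyase, with no overlap between groups. The fall after UVC was -1.26 ± 0.07 (adjusted p = 4.95e-10), the rise with active photolyase 0.63 ± 0.07 (adjusted p = 1.26e-06), and the remaining difference from control -0.63 ± 0.07 (adjusted p = 2.24e-06). NOTCH2 has relatives in the genome, the gene NOTCH2NLA and the processed pseudogene NOTCH2P1 (not analysed here). Reads could have been shared with them, to an extent not measured here, so the level of NOTCH2 is uncertain.

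NOTCH3 (ENSG00000074181, chromosome 19) was the least abundant of the 3 receptors and rose. It stood at 1.08 and 1.15 scaled cRPKM in the control libraries, 3.02 and 2.79 in the UVC libraries, and 1.46 and 1.60 with active photolyase. The groups did not overlap. The log2 differences were 1.38 ± 0.08 after UVC (adjusted p = 1.3e-09), -0.93 ± 0.08 from UVC to active photolyase (adjusted p = 9.68e-08) and 0.45 ± 0.08 between active photolyase and control (adjusted p = 0.00037). These calls rest on 541 to 1673 counts per library.

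Within a library the ratio of 2 genes does not depend on how libraries are scaled. The JAG1 to JAG2 ratio of cRPKM was 19.9 and 22.2 in the control libraries, 2.00 and 2.01 in the UVC libraries, and 14.7 and 13.3 with active photolyase. The NOTCH1 to NOTCH2 ratio was 1.5 and 1.53, then 3.85 and 3.46, then 1.91 and 1.96. For NOTCH1 to NOTCH3 the ratios were 13.0 and 14.6, then 5.36 and 5.30, then 8.65 and 8.03. In each of these 3 ratios the groups did not overlap, and the photolyase libraries lay between the others. The JAG1 to DLL1 ratio was 24.3 and 23.7, then 6.54 and 6.30, then 20.4 and 18.7, in the same order of groups. With 2 libraries a side an exact two-sided permutation test cannot give a p below 0.333, so these ratios are given as values.

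**Figure D2:**
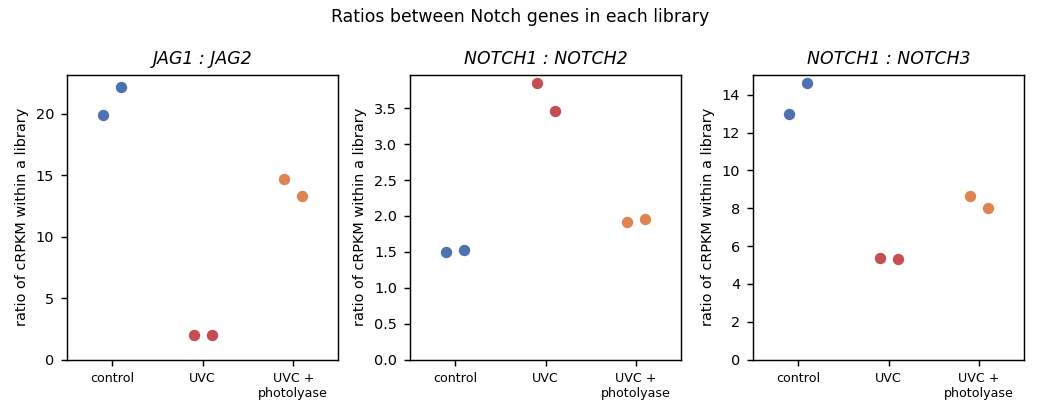
Ratios of cRPKM between pairs of Notch ligands and receptors in each library (points; linear axes from 0) by group. The JAG1 to JAG2 ratio is near 2 in both UVC libraries and at or above 13.3 in the other 4.

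Both nuclear factors were lower after UVC with TMM factors, and MAML1 was not called with library totals. RBPJ (ENSG00000168214, chromosome 4), the DNA-binding protein of the pathway, stood at 2.27 and 1.96 scaled cRPKM in the control libraries, 1.02 and 1.10 in the UVC libraries, and 1.11 and 1.31 with active photolyase, from 165 to 329 counts per library. The control libraries lay above the other 4. The difference after UVC was -0.99 ± 0.13 (adjusted p = 9.76e-06), and active photolyase differed from control by -0.81 ± 0.13 (adjusted p = 0.000139). Between active photolyase and UVC the difference was 0.18 ± 0.14 (adjusted p = 0.248, 95% interval -0.12 to 0.49) and became -0.12 (adjusted p = 0.43) with library totals. RBPJ has the processed pseudogenes RBPJP2, RBPJP5, RBPJP6 and RBPJP7 (not analysed here), so its count is uncertain.

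MAML1 (ENSG00000161021, chromosome 5), the co-activator that binds the Notch and RBPJ complex, stood at 8.35 and 8.51 scaled cRPKM in the control libraries, 6.07 and 5.97 in the UVC libraries, and 7.59 and 7.61 with active photolyase. The groups did not overlap on this scale. Its log2 differences were -0.48 ± 0.05 after UVC (adjusted p = 9.41e-07), 0.33 ± 0.05 from UVC to active photolyase (adjusted p = 5.03e-05) and -0.15 ± 0.05 between active photolyase and control (adjusted p = 0.0208). None of the 3 was called with library totals, where they were -0.07 (adjusted p = 0.238), 0.03 (adjusted p = 0.626) and -0.04 (adjusted p = 0.518). The difference from control was also not called without control replicate 2 (adjusted p = 0.0617), photolyase replicate 1 (adjusted p = 0.0883) or photolyase replicate 2 (adjusted p = 0.0847).

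The target HES1 (ENSG00000114315, chromosome 3), a repressor of the HES family, rose after UVC while RBPJ fell. Its levels were 48.1 and 45.0 scaled cRPKM in the control libraries, 107 and 108 in the UVC libraries, and 54.8 and 48.7 with active photolyase. Both UVC libraries lay above the other 4. The rise was 1.21 ± 0.06 (adjusted p = 2.65e-10), and the fall from UVC to active photolyase was -1.05 ± 0.06 (adjusted p = 1.69e-09). Of all tested genes, 1.09% had a lower log2 difference than HES1 between active photolyase and UVC. Active photolyase against control gave 0.16 ± 0.06 (adjusted p = 0.0368). That call was lost with DESeq2 (adjusted p = 0.0502), with no filter on low values (0.11, adjusted p = 0.179), and without control replicate 2 (0.11, adjusted p = 0.164), UVC replicate 1 (adjusted p = 0.0626), UVC replicate 2 (adjusted p = 0.0629) or photolyase replicate 1 (0.07, adjusted p = 0.409).

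HEY1 (ENSG00000164683), a HEY-family repressor, was close to the minimum for testing. It stood at 0.688 and 0.577 scaled cRPKM in the control libraries, 1.33 and 1.46 in the UVC libraries, and 0.723 and 0.731 with active photolyase, from 71 to 198 counts per library. The UVC libraries lay above the other 4. The fitted log2 differences were 1.13 ± 0.16 after UVC, -0.93 ± 0.15 from UVC to active photolyase and 0.20 ± 0.18 between active photolyase and control (adjusted p = 0.33, 95% interval -0.18 to 0.58).

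Promoter stretches are shown for 3 of the listed target genes that rose after UVC, HES1, HES4 and NRARP. The last encodes a small ankyrin-repeat protein that feeds back on Notch. Each is the 150 bases before the annotated gene start, 5′ to 3′ on the strand of the gene, from RefSeq on GRCh38.p14. Capitals mark the RBPJ core GTGGGAA, which was searched on both strands (reverse complement TTCCCAC).
HES1, chr3:194135998-194136147, plus strand: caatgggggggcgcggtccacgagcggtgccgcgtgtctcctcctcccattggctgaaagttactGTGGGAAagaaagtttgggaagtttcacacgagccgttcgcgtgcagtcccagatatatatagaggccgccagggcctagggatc
HES4, chr1:1000098-1000247, minus strand: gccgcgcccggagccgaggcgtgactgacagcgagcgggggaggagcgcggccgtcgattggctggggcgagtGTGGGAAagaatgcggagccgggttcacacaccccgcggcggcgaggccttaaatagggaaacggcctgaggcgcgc
NRARP, chr9:137302272-137302421, minus strand: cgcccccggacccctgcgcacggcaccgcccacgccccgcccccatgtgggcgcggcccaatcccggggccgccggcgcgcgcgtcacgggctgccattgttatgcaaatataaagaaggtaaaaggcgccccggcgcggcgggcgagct
The core began 85 bases before the start in HES1 and 77 bases before it in HES4. These letters were not in the NRARP window. Over windows of 300 bases (250 before to 50 after the start), the core was in 2178 of 34941 promoters, or 6.23%. Among the 8 of 10 followed genes with an entry, 2 held it, HES1 and RBPJ, in 2 of their 12 promoter entries. In a wider pathway list of 53 genes 45 had an entry, and 5 of their 62 entries held the core (SPEN, HES4, HES5, HEY2 and HEYL). HES2 and HES6, which also rose after UVC and are not shown, held 0 cores. HES5 and HEY2, untested and lower in the UVC libraries, held 2 cores each. A match is a description of the sequence and not a shown binding site, and a link between core and change was not tested.

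Levels per length were ordered differently in the 3 groups. In control the order of scaled cRPKM was JAG1 (106 ± 7.33), HES1 (46.5 ± 2.16), NOTCH1 (15.4 ± 1.98), NOTCH2 (10.2 ± 1.14), MAML1 (8.43 ± 0.111), JAG2 (5.03 ± 0.0389), DLL1 (4.40 ± 0.383), RBPJ (2.11 ± 0.220), NOTCH3 (1.12 ± 0.0499) and HEY1 (0.633 ± 0.0787), and no 2 neighbours overlapped. After UVC it was HES1 (107 ± 0.777), JAG1 (29.5 ± 0.319), NOTCH1 (15.5 ± 1.01), JAG2 (14.7 ± 0.112), MAML1 (6.02 ± 0.0715), DLL1 (4.6 ± 0.169), NOTCH2 (4.24 ± 0.0379), NOTCH3 (2.91 ± 0.164), HEY1 (1.40 ± 0.0944) and RBPJ (1.06 ± 0.0528). NOTCH1 and JAG2 met at 14.8 in that order, and the other neighbours did not overlap. With active photolyase it was JAG1 (109 ± 3.02), HES1 (51.8 ± 4.31), NOTCH1 (12.7 ± 0.174), JAG2 (7.85 ± 0.346), MAML1 (7.60 ± 0.0140), NOTCH2 (6.57 ± 0.0357), DLL1 (5.60 ± 0.173), NOTCH3 (1.53 ± 0.1), RBPJ (1.21 ± 0.138) and HEY1 (0.727 ± 0.00591). JAG2 and MAML1 met at 7.61 there, and the other neighbours did not overlap.

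Counted together, 8 of the 10 genes were called for UVC against control, 4 higher (NOTCH3, JAG2, HES1 and HEY1) and 4 lower (NOTCH2, JAG1, RBPJ and MAML1). Of all tested genes, 85.6% were called in that comparison, 42.5% higher and 43.1% lower, so the share among the 10 is near the background. Without HEY1 there were 3 higher and 4 lower of 9. The median log2 difference of the 10 was 0.03, and that of all tested genes 0.0. With library totals 6 were higher and 3 lower, with a median of 0.45, while 89.2% of all tested genes were called, 59.5% higher and 29.7% lower. Single genes lay further out: 3.12% of tested genes had a higher log2 difference than JAG2, 4.63% than NOTCH3 and 6.67% than HES1, and 6.1% had a lower one than JAG1.

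For active photolyase against UVC 9 of the 10 were called, 4 higher (NOTCH2, JAG1, DLL1 and MAML1) and 5 lower (NOTCH1, NOTCH3, JAG2, HES1 and HEY1), beside 79.1% of all tested genes, 39.2% higher and 39.9% lower. Without HEY1 there were 4 of 9 higher and 4 lower. Library totals gave 2 higher and 5 lower, beside 86.1% of all tested genes, 27.8% higher and 58.3% lower. For active photolyase against control 8 were called, 4 higher (NOTCH3, JAG2, DLL1 and HES1) and 4 lower (NOTCH1, NOTCH2, RBPJ and MAML1), beside 65.8% of all tested genes, 33.0% higher and 32.9% lower. Library totals gave 5 higher and 2 lower, beside 67.7% of all tested genes, 43.9% higher and 23.8% lower. Without control replicate 2 the last count fell from 8 to 5, since the calls of NOTCH1, MAML1 and HES1 were lost. The comparisons share libraries, so their values are set side by side and are not independent of each other.

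**Figure D3:**
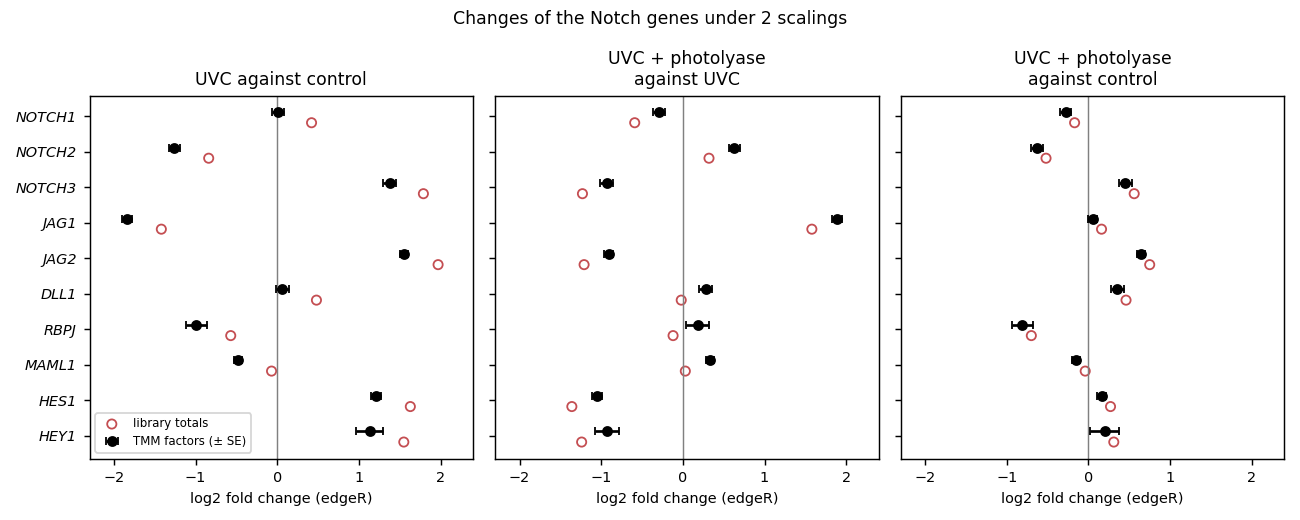
Log2 fold change ± SE of the 10 Notch genes in the 3 comparisons with TMM factors (filled points), and log2 fold change with library totals (open points). NOTCH1, DLL1 and MAML1 change call with the scaling for UVC against control, while JAG1, NOTCH2, NOTCH3, JAG2 and HES1 keep theirs.

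**Figure D4:**
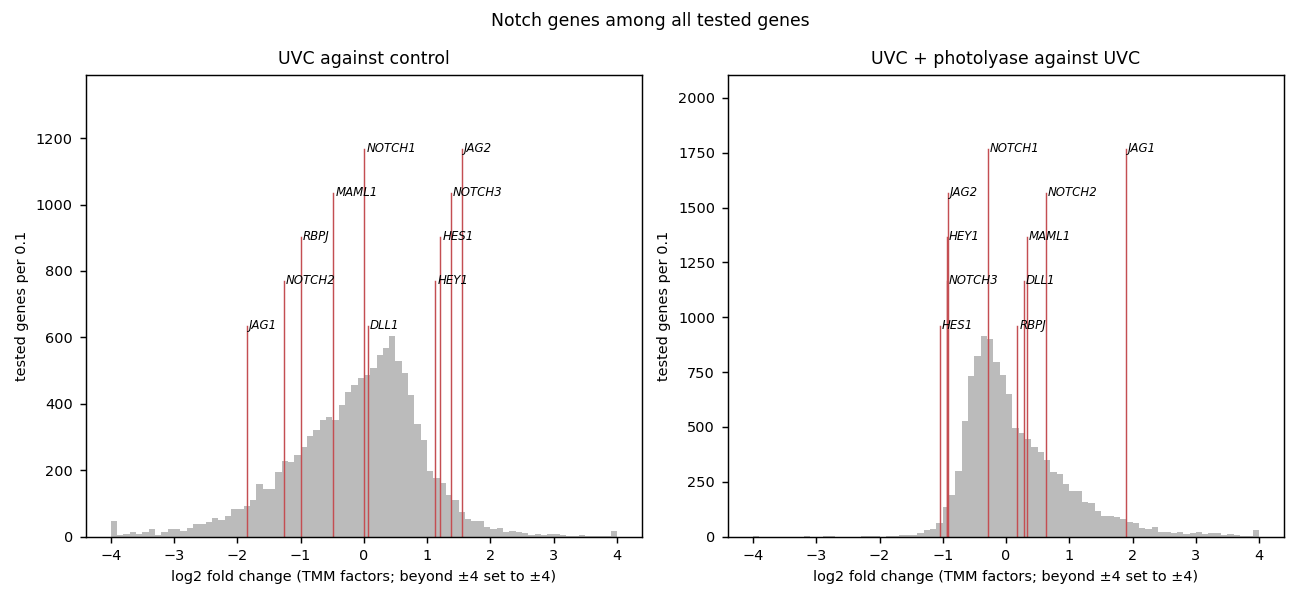
Histograms of the log2 fold changes of all 11926 tested genes for UVC against control and for active photolyase against UVC (bars, genes per 0.1), with the 10 Notch genes as red lines whose heights only separate the labels. JAG2 and JAG1 lie on opposite flanks in both.

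The wider pathway was described by 53 further genes, of which 43 were tested. For UVC against control 16 were higher and 23 lower, with a median of -0.23 (22 higher and 19 lower, median 0.19, with library totals), beside 42.5% higher and 43.1% lower of all tested genes (85.6% called). For active photolyase against UVC 19 were higher and 19 lower, with a median of 0.04 (15 and 24, median -0.27, with library totals), beside 39.2% and 39.9% of all tested genes. For active photolyase against control 16 were higher and 23 lower, with a median of -0.20 (17 and 21, median -0.09, with library totals), beside 33.0% and 32.9%. The list was not tested as a set.

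Among genes for processing and cleavage of Notch, 4 of 13 tested were higher after UVC and 7 lower, beside 42.5% and 43.1% of all tested genes. LFNG, a fringe enzyme that adds sugar to Notch and alters its choice of ligand, rose from 1.89 to 6.5 scaled cRPKM (1.78 ± 0.09, adjusted p = 3.77e-10) and was 3.59 with active photolyase. MFNG, another fringe enzyme, fell from 6.39 to 1.97 (-1.70 ± 0.13, adjusted p = 3.48e-08) and was 3.01 with active photolyase. PSEN2, a catalytic subunit of gamma-secretase, rose from 2.22 to 4.56 (1.04 ± 0.10, adjusted p = 4.44e-07). The proteases ADAM10 and ADAM17 fell, from 53.5 to 25.0 (-1.10 ± 0.06) and from 30.9 to 14.7 (-1.08 ± 0.05). Of other cleavage genes, PSENEN rose by 0.44 ± 0.07, APH1A gave 0.0 ± 0.05 and NCSTN -0.23 ± 0.05. With library totals APH1A and NCSTN were called higher (0.42 and 0.19).

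Of the genes for trafficking and turnover, 3 of 10 tested were higher after UVC and 6 lower, beside the same 42.5% and 43.1%. ITCH, a ubiquitin ligase that acts on Notch, fell from 53.4 to 9.68 scaled cRPKM (-2.46 ± 0.06, adjusted p = 1.09e-13), and with active photolyase it was 21.1. FBXW7, which marks the freed intracellular domain for destruction, fell from 5.95 to 1.32 (-2.17 ± 0.09, adjusted p = 6.59e-11) and was 3.07 with active photolyase. MIB2, a ligase that acts on Notch ligands, rose from 11.4 to 19.4 (0.77 ± 0.06, adjusted p = 3.72e-08) and was 13.2 with active photolyase.

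In the nuclear group, 5 of 16 tested were higher after UVC and 10 lower, with a median of -0.74 (-0.34 with library totals), beside 42.5% higher and 43.1% lower of all tested genes. KAT2B, among the 5 higher, reached 1 cRPKM in both UVC libraries and otherwise only in photolyase replicate 2 (1.06). Like HEY1, it was tested only because of its UVC level, and it is counted in the wider list too. TLE3, a Groucho-type co-repressor that works with HES proteins, fell from 12.1 to 3.64 scaled cRPKM (-1.73 ± 0.05, adjusted p = 1.7e-12) and was 15.6 with active photolyase, above control by 0.37 ± 0.05 (adjusted p = 2.48e-05). EP300, an acetyltransferase recruited by Mastermind proteins, fell from 18 to 5.62 (-1.68 ± 0.09, adjusted p = 3.48e-10). MAML2, a relative of MAML1, rose from 1.74 to 3.82 (1.14 ± 0.07, adjusted p = 3.37e-09) and was 2.41 with active photolyase, whereas MAML3 stayed below 1 cRPKM in all libraries.

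Of 8 further genes listed as targets, 4 could be tested, and all 4 were higher after UVC under both scalings. Beside them stand 42.5% of all tested genes with TMM factors and 59.5% with library totals. HES2 and HES6 belong to the HES family by name, and whether any of the 4 answers to Notch in these cells was not tested. NRARP went from 36.9 and 38.7 scaled cRPKM in control to 97.6 and 92.7 after UVC, and was 70.1 and 63.2 with active photolyase. Its rise was 1.33 ± 0.06 (adjusted p = 8.8e-11). HES4 went from a mean of 20.6 to 39.2, and was 30.9 with active photolyase. Its rise was 0.93 ± 0.06 (adjusted p = 8.84e-09).

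HES6 went from 1.37 and 2.12 to 6.28 and 5.71, and was 4.67 and 4.03 with active photolyase (rise 1.79 ± 0.16, adjusted p = 1.11e-07). HES2 went from 30.5 and 28.9 to 46.2 and 45.9, and was 42.7 and 40.8 with active photolyase (rise 0.63 ± 0.05, adjusted p = 4.26e-08). In all 4 the photolyase libraries lay between the control and UVC libraries, and all 4 were lower than UVC and higher than control by the test. Of all tested genes, 39.9% were called lower than UVC and 33.0% higher than control with active photolyase. With library totals these shares were 58.3% and 43.9%. HES6 is known to oppose HES1 rather than to act as it does. HES5, HES7, HEY2, HEYL, NOTCH4, DLL3 and DLL4 stayed below 1 cRPKM in every library and were not tested. HES5 was at 0.293 and 0.215 scaled cRPKM in control and at 0.0593 and 0.152 after UVC, and HEY2 at 0.338 and 0.362 in control and at 0.212 and 0.271 after UVC, both lower in the 2 UVC libraries. HES7 was at 0.124 and 0.204 scaled cRPKM in the control libraries, 0.796 and 0.566 in the UVC libraries, and 0.398 and 0.355 with active photolyase.

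Of the genes named from the wider list, ITCH, FBXW7, MIB2, EP300, SPEN, MAML2, MAML3, HES5, HES6, HEY2 and HEYL overlap antisense genes in the annotation, for which the limit given at DLL1 holds. The same is true of ADAM10, ADAM17, NCSTN, APH1A and PSENEN. LFNG and TLE3 each overlap 1 gene on their own strand (not analysed here).

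**Figure D5:**
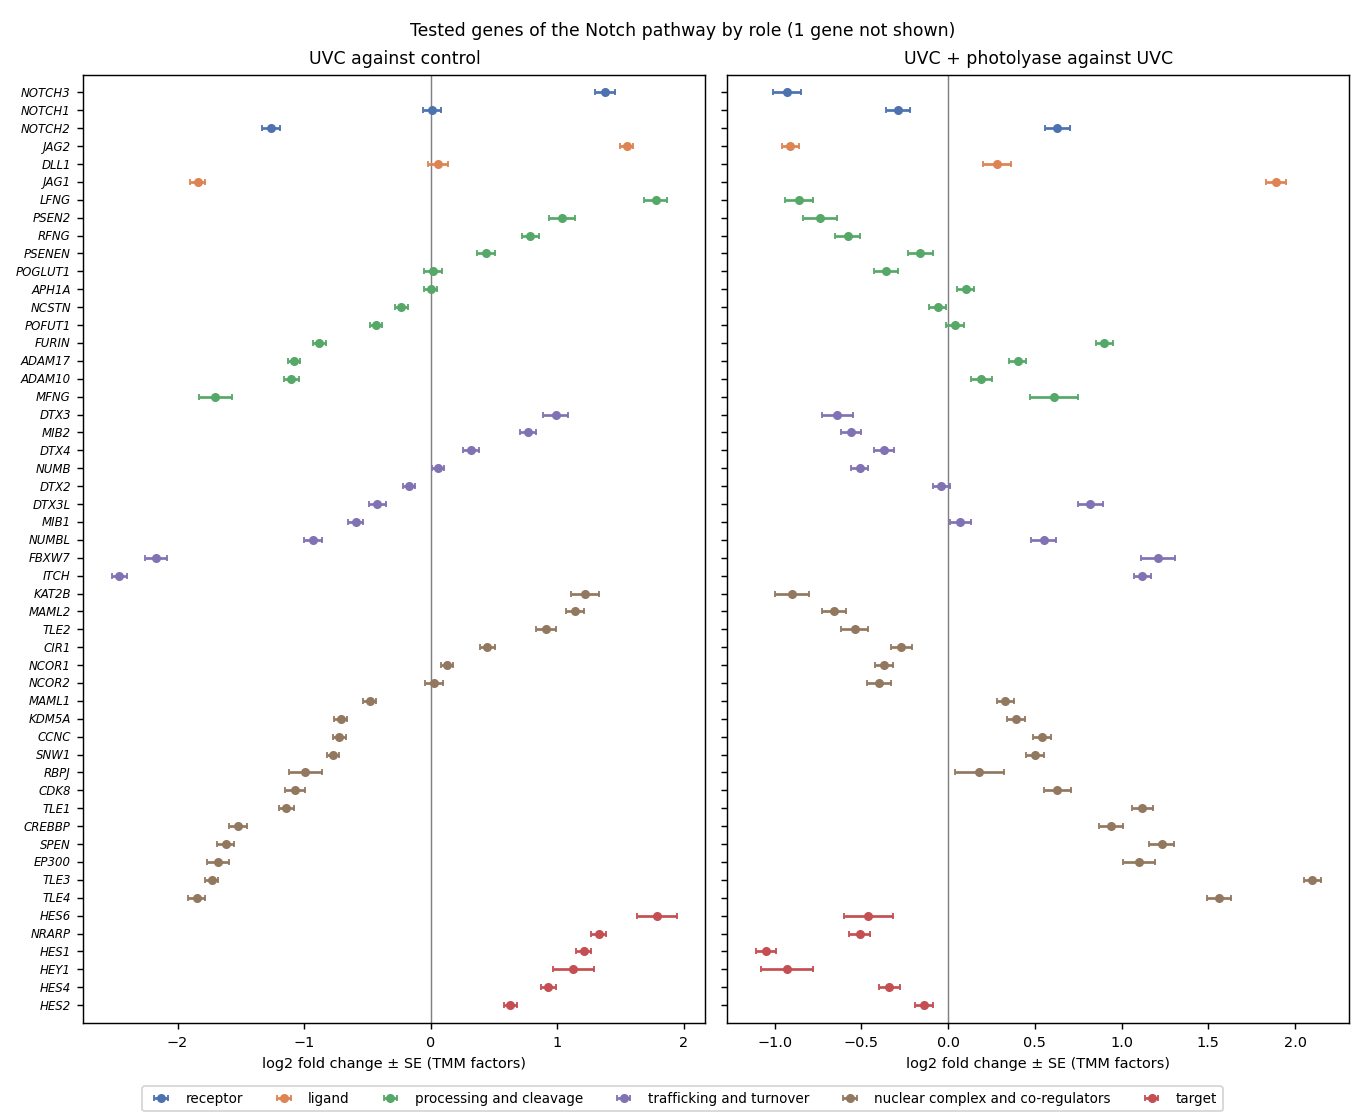
Log2 fold change ± SE of the tested Notch pathway genes (1 not shown), grouped and coloured by listed role, for UVC against control (left) and active photolyase against UVC (right), with TMM factors. HES1, HES2, HES4, HES6 and NRARP lie right of 0 on the left and left of 0 on the right, and HEY1 was tested only through its UVC level. The other roles hold genes on both sides.

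Between UVC and control, direction of change differed with gene length. In the GENCODE v29 annotation on GRCh38 the span from start to end is 2.59 kb for HES1, 3.85 kb for HEY1, 24.4 kb for DLL1, 27.8 kb for JAG2, 36.3 kb for JAG1, 41.9 kb for NOTCH3, 44.4 kb for MAML1, 51.4 kb for NOTCH1, 158 kb for NOTCH2 and 272 kb for RBPJ. Among all tested genes with a span, 60.7% of those under 10 kb were called higher after UVC and 24.8% lower. Of those over 100 kb, 33.7% were higher and 51.7% lower. Among the tested pathway genes, the followed ones included, 8 of 9 under 10 kb were higher and 0 lower, and 3 of 16 over 100 kb were higher and 11 lower. Without HEY1, 7 of 8 under 10 kb were higher. The 3 higher over 100 kb include KAT2B (114 kb), which was tested only because of its UVC level. Between active photolyase and UVC both of these length classes of all tested genes leaned lower, with 30.3% higher and 43.6% lower under 10 kb and 34.8% higher and 48.8% lower over 100 kb. At 10 to 50 kb 43.5% were higher and 36.2% lower, and at 50 to 100 kb 44.3% and 36.5%. Of the pathway genes under 10 kb, 0 of 9 were higher and 8 lower, or 7 of 8 lower without HEY1. Over 100 kb 9 of 16 were higher and 5 lower. JAG1 and JAG2 moved in opposite directions at spans of 36.3 and 27.8 kb, and MAML2 rose with a span of 367 kb. These length classes were chosen after the values were seen, and the part of gene length in the changes was not tested.

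Markers of other cell types were also measured. Of 5 endothelial markers 4 were matched and 1 was tested, CDH5, at 4.31 and 4.30 scaled cRPKM in the control libraries, 0.550 and 0.533 in the UVC libraries, and 2.69 and 2.94 with active photolyase. The summed endothelial level was 4.67 to 4.73 in control, 0.99 to 1.07 after UVC and 3.16 to 3.41 with active photolyase and was carried by CDH5. Its levels were lowest after UVC and between UVC and control with active photolyase, as those of NOTCH2 were. This course was not particular to CDH5. The keratinocyte markers TP63, ITGA6 and CDH1 took it too, at 32.1 and 30.3, 151 and 161, and 203 and 211 with active photolyase, whereas KRT5 was highest after UVC. VWF stood at 0.361 and 0.339 in control and at 0.508 and 0.44 after UVC, and KDR and TEK did not exceed 0.0836 in any library. No melanocyte marker of 5 was tested. Fibroblast markers (2 of 6 tested) summed to 7.31 to 8.41, 8.32 to 8.59 and 9.21 to 9.58, and immune markers (3 of 5 tested) to 53.3 to 56.1, 49.7 to 52.9 and 81.2 to 82.0, in the same order of groups. The immune sum was mostly CD68, a lysosomal protein used as a macrophage marker, at 52.2 and 50.2 scaled cRPKM in control, 50.2 and 47.2 after UVC, and 79.9 and 79.0 under active photolyase. The other tested immune markers, CD3E and CD14, took courses unlike that of CD68. CD3E was below control in both irradiated groups (control libraries 2.19 and 1.66, UVC 0.61 and 0.643, photolyase 0.859 and 0.878). CD14 was lowest with the enzyme active, at 1.24 and 1.29, beside 1.69 and 1.4 for control and 2.1 and 1.87 for UVC. PTPRC, which marks blood cells, did not exceed 0.0451. The part of these lists in the results was not tested.

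The genes closest in pattern were sought for 3 genes by Euclidean distance in centred log2 depth-scaled counts over the 6 libraries, among 11916 tested genes. Closest to HES1 were GGT6 (distance 0.0756), SEMA6B (0.0886) and HOXA3 (0.0887). GGT6 averaged 0.791 (control), 1.81 (UVC) and 0.9 (active photolyase) scaled cRPKM. For HOXA3 these means were 0.554, 1.35 and 0.638, and for SEMA6B 1.28, 3.06 and 1.44. GGT6 and HOXA3 thus had means above 1 only in the UVC group, where HES1 was highest. Like HEY1, they probably entered the tested set through the UVC libraries, so their likeness to HES1 is a description. JAG1 was most like PPP1R10 (0.0790), RBBP5 (0.0902) and KLHL15 (0.112). NOTCH1 was most like MTOR (0.0520), NF1 (0.0858) and CELSR1 (0.0976).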

How the data were processed

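RNA of HaCaT cells was sequenced from 6 libraries, 2 in each of 3 groups, prepared by the TruSeq protocol per the labels. The submitters' processing notes name Bowtie and the hg19 build. How reads were assigned to genes, with or without strand and from which annotation, is not given in these sources. The authors deposited for each gene a read count (whole numbers) and a corrected RPKM, and the deposited RPKM is the count relative to effective gene length and library total, as the values show. Of 19847 genes listed, 354 had no values.

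Counts were fitted with edgeR 4.0.16 in R 4.3.3 (quasi-likelihood F test, 3 group means over 6 libraries, TMM factors of 0.886 and 0.884 in the controls, 1.18 in each UVC library, 0.954 and 0.957 with active photolyase). Genes with at least 1 cRPKM in 2 libraries were tested (11926), two-sided, with Benjamini-Hochberg adjustment over all of them and a threshold of 0.05. The script was tested on simulated data. In these few genes changed, as many up as down, so they do not test the scaling where most genes are called. Alternatives were DESeq2 1.42.0, library totals, no filter, a filter of 5 cRPKM, limma 3.58.1 on log2(cRPKM + 1) and log2(cRPKM + 0.1), a replicate block and leaving out each library.

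The followed genes and lists were chosen with earlier results of these data known. Named were all 10, for each role of the wider list the called gene of smallest p in each direction for UVC against control, the family relatives of the 10, and for HES1, JAG1 and NOTCH1 the 3 genes of most like pattern. A gene that this rule names among processing and cleavage is not reported here. MFNG, PSEN2, ADAM10, ADAM17, PSENEN, APH1A, NCSTN, FBXW7, EP300 and KAT2B were named after their values were seen. Symbols came from Ensembl identifiers, and 18913 of 19493 genes had one. Promoters came from RefSeq (GRCh38.p14).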

Additional observations from a re-analysis of the deposited data

How the results depend on the processing

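Of 381 log2 differences of the 10 genes recomputed under the alternatives, 334 kept their direction and their side of the threshold, 24 lost a call, 11 gained one and 12 turned direction, none of the 12 called in the original fit except DLL1 for active photolyase against UVC. For UVC against control NOTCH1 turned to -0.08 with no filter, -0.12 without control replicate 1 and -0.06 without UVC replicate 1, and DLL1 to -0.03 with no filter and -0.02 without control replicate 1. For active photolyase against UVC DLL1 turned to -0.02 with library totals and with limma at both pseudocounts, and RBPJ to -0.12 with library totals and to -0.07 and -0.11 with limma at pseudocounts 1 and 0.1. For active photolyase against control JAG1 turned to -0.02 without control replicate 1. Limma scales by library totals by construction, and otherwise the cause was not tested.

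Over the fits that leave out a library, NOTCH1 for UVC against control ran from -0.12 to 0.14, DLL1 from -0.02 to 0.16, and JAG1 for active photolyase against control from -0.02 to 0.13. These fits gave 8 to 9, 8 to 9 and 5 to 8 called genes of the 10 in the 3 comparisons, and 38 to 40, 34 to 38 and 34 to 39 of the wider list. The count of 5 came without control replicate 2. A group left with 1 library is assumed to vary like the others. A filter of 5 cRPKM removed HEY1, NOTCH3 and RBPJ and called 6, 7 and 6 of 7, with DLL1 newly called for UVC against control (0.18, edgeR adjusted p = 0.0431). DESeq2 called 8, 9 and 7. In the original fit 85.6%, 79.1% and 65.8% of all tested genes were called in the 3 comparisons. Apart from library totals, such shares are not given for the alternatives. The counts in this section therefore describe the stability of calls and are no result about the Notch genes.

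The replicate numbers showed no clear pairing of the samples. Same-numbered libraries correlated in their deviations at -0.0297 (control and UVC), -0.0505 (control and photolyase) and 0.126 (UVC and photolyase). With 2 libraries a group these values cannot exclude a pairing. A fit with replicate block gave 8, 9 and 8 for the 10 genes and 39, 38 and 39 called genes for the wider list, and it changed no call of the 10. Depth limits RBPJ (165 to 329 counts) and HEY1 (71 to 198 counts) most.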
